A study of Equus caballus with 93 samples.

Results

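Synovial fluid cells from saline-treated horse joints were compared between week 10 and week 2 after surgery, which spans the exercise period of the study. The comparison uses 16 of the 93 sequenced libraries: 8 Control horses, each sampled at both weeks and paired by the horse's KA number. In all 16 horses of the study, aged 2 to 5 years, an osteochondral fragment had been made surgically in 1 middle carpal joint as a model of osteoarthritis, and that joint was injected at week 2. The Control joints received 2 mL of phosphate buffered saline, and the joints of the other arm, used here only beside the Control values, received 2 mL of 2.5% injectable polyacrylamide hydrogel (iPAAG). All horses were exercised 5 days a week from week 2 to week 10, so no group is without surgery or exercise. The week 0 fluid was drawn before surgery. Both the injection and a fluid sample fell at week 2, and their order is not in the labels. Elapsed time, saline and exercise change together between the weeks compared and cannot be told apart.

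Synovial fluid carries few cells in a healthy joint, mostly mononuclear cells with some shed lining cells, and the lining itself makes the hyaluronan and lubricin that the fluid holds. After joint injury or surgery, leukocytes enter the fluid from the blood and their numbers and types change as the joint settles. RNA from fluid cells therefore reads the makeup of the cells and their activity together. In bulk RNA such as this, fewer cells of a type and less RNA per cell cannot be told apart. The deposited table lists genes by Ensembl horse identifier, and 0 of its 15838 identifiers matched a symbol in the table of gene names used here. Genes are therefore described by their values and by identifier, and the labelled cell source was not checked against marker genes.

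Of the 16 libraries, 3 stood apart in how widely expression was spread over genes. Spread here means the SD, across the genes of 1 library, of log2 CPM (CPM, reads relative to a scaled library size). It was 1.34 in horse 10 at week 2, 1.90 in horse 9 at week 10 and 1.35 in horse 13 at week 10, against 2.74 to 3.72 in the other 13 libraries. These 3 libraries held 5083967 to 10608339 reads and left 4 to 8 genes without a read, against 17963236 to 29297685 reads and 12 to 1082 genes in the others. The main comparison leaves out every library with a spread below 2, which keeps 7 Control libraries at week 2, 6 at week 10 and both libraries of 5 horses (1, 2, 11, 15 and 16). The lowest spread kept, 2.74, belonged to horse 1 at week 10. Over all 8 horses, spread averaged 3.23 ± 0.78 (SD, n = 8) at week 2 and 2.97 ± 0.90 (SD, n = 8) at week 10, lower in 4 horses and higher in 4 (two-sided exact permutation p = 0.609, adjusted p = 0.633 over 4 library measures).

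Between week 2 and week 10, 3697 of 15838 genes (23.3%) passed the test in Control joints, by limma with Benjamini-Hochberg adjusted p below 0.05. Lower genes outnumbered higher ones: 2344 genes (14.8% of all) fell and 1353 (8.54% of all) rose. The median fall was 0.79 on the log2 scale, 1.73-fold, and the median rise 1.27, 2.42-fold. Over all genes the median change was -0.07. The split depends on the scaling. Quantile normalisation called 3670 genes with 52.1% of them higher, against 36.6% as deposited. Without horse 15 the count was 2286. With all libraries, whatever their spread, 1232 genes (7.78%) were called, 539 higher (3.4%) and 693 lower (4.38%), and 1230 of them were called in the same direction in the main comparison.

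**Figure D1:**
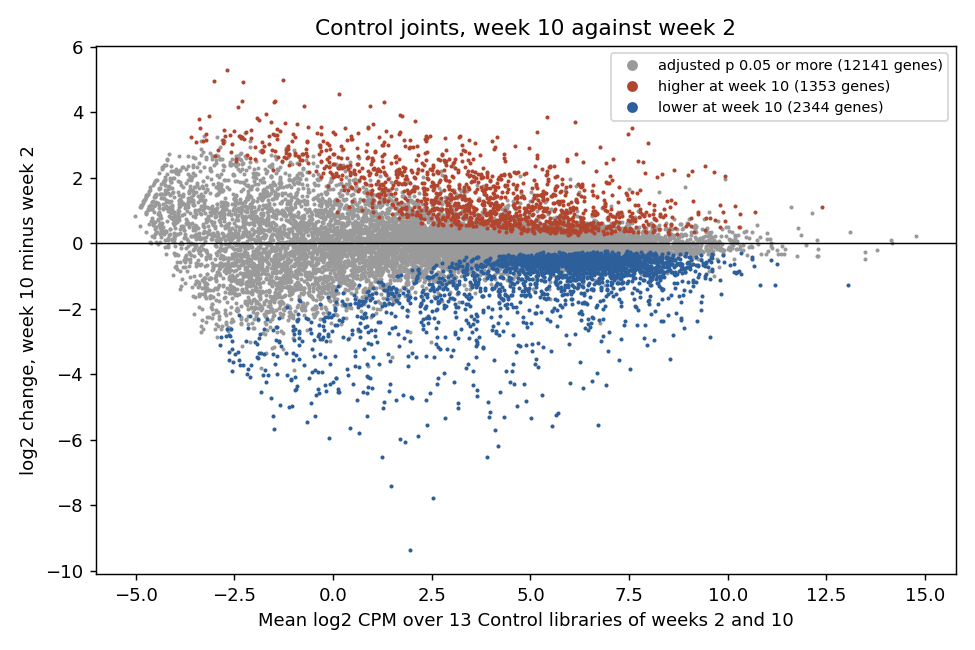
Each point is a gene, with its mean log2 CPM over the 13 Control libraries of weeks 2 and 10 on the x axis and its log2 change from week 2 to week 10 on the y axis. The 1353 genes that rose and the 2344 that fell are coloured, and the falls form a dense band of small changes among abundant genes and a thin band of very large ones.

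On the deposited scaling, the rises and falls lay at different levels of expression. This was not checked under quantile normalisation, which called more rises than falls. Among the 2883 genes with a mean of 6 to 8 log2 CPM, 30.7% fell and 6.94% rose, and among the 820 genes at 8 or more, 28.9% fell and 7.32% rose. Among the 2919 genes at 2 to 4 log2 CPM the order was the opposite, with 12.7% higher and 8.87% lower. Falls among abundant genes were mostly small, with a median of -0.63 at 6 to 8 log2 CPM. The standard error also shrank with abundance, from a median of 1.01 below 0 log2 CPM to 0.16 at 6 to 8, so small changes could pass only in abundant genes.

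Very large changes were mostly falls. A change of 1 or more on the log2 scale was reached by 828 of the higher and 930 of the lower genes. At 2 or more the numbers were 382 and 416, at 3 or more 105 and 204, and at 4 or more, a 16-fold change, 12 and 99. Thus 4.22% of the genes that fell, and 0.887% of those that rose, changed 16-fold or more. Few reads bear on these sizes. Of the 99 genes, 68 had a mean below 0 log2 CPM in at least 1 of the weeks compared. So had 219 of the 416 that fell and 195 of the 382 that rose by 2 or more. With all libraries the median change of the 99 was -3.66.

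The gene with the largest rise by the naming rule, ENSECAG00000008971, was scarce at week 2 and moderately expressed at week 10. Its lowest, median and highest log2 CPM were -3.90, -0.69 and 1.66 over the 7 Control libraries of week 2, and 3.04, 3.65 and 4.24 over the 6 of week 10. The groups did not overlap. It held 1 to 52 reads per library at week 2 and 199 to 324 at week 10. The fitted rise was 4.30 ± 0.86 on the log2 scale (SE, limma adjusted p = 0.000265), with a rise in each of the 5 horses with both libraries, from 3.89 to 5.05. At week 0, before surgery, its mean was 3.54 ± 1.43 log2 CPM (SD, n = 8), close to the 3.67 ± 0.42 (SD, n = 6) of week 10 and far above the -0.76 ± 1.70 (SD, n = 7) of week 2.

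The next rise, ENSECAG00000005880, followed the same course. Over the week 2 libraries its lowest, median and highest log2 CPM were -2.52, -0.31 and 1.55, and over the week 10 libraries 2.60, 4.02 and 4.62. These groups did not overlap either, and the lowest week 10 value was that of horse 2, which also had the lowest at week 2. The gene rose by 3.91 ± 0.69 (SE, limma adjusted p = 5.70e-05), in 5 of 5 horses with both libraries. Its mean had been 3.03 ± 0.96 (SD, n = 8) before surgery. It was 0.16 ± 1.84 (SD, n = 7) in week 4, 3.13 ± 1.13 (SD, n = 6) in week 6 and 2.58 ± 1.34 (SD, n = 7) in week 8. The low level of week 2 was thus also seen at week 4 in most horses, but not in horses 1 and 13, at 3.14 and 2.40. The week 6 mean was near that of week 0.

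The largest fall was that of ENSECAG00000019922, which went from well expressed to nearly undetected. Its lowest, median and highest log2 CPM were 4.81, 5.95 and 8.18 at week 2, on 465 to 6643 reads. At week 10 they were -5.15, -2.92 and -0.60, on 0 to 15 reads, and 2 of the 6 libraries (horses 11 and 15) held no read of it. The groups were far apart, with the highest week 10 library, that of horse 1, more than 5 units below the lowest of week 2. The gene fell by 9.38 ± 1.73 on the log2 scale (SE, limma adjusted p = 0.000101), in 5 of 5 horses. With so few reads at week 10 the size of the fall depends on the 0.5 reads that the deposited values add to each count. With 1 CPM added instead the change was -6.03, and with voom weights the call was lost at a change of -9.05 ± 4.83 (SE, limma adjusted p = 0.175).

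ENSECAG00000044786 fell in the same libraries. It had a lowest, median and highest log2 CPM of 3.58, 6.14 and 7.67 at week 2 and of -5.15, -0.74 and 1.65 at week 10, again without overlap. The gene fell by 7.79 ± 1.27 (SE, limma adjusted p = 2.99e-05), in 5 of 5 horses, with changes from -5.78 in horse 1 to -12.35 in horse 11. With 1 CPM added the change was -5.39. Horses 11 and 15 again held no read at week 10, while horse 10 held 76.

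**Figure D2:**
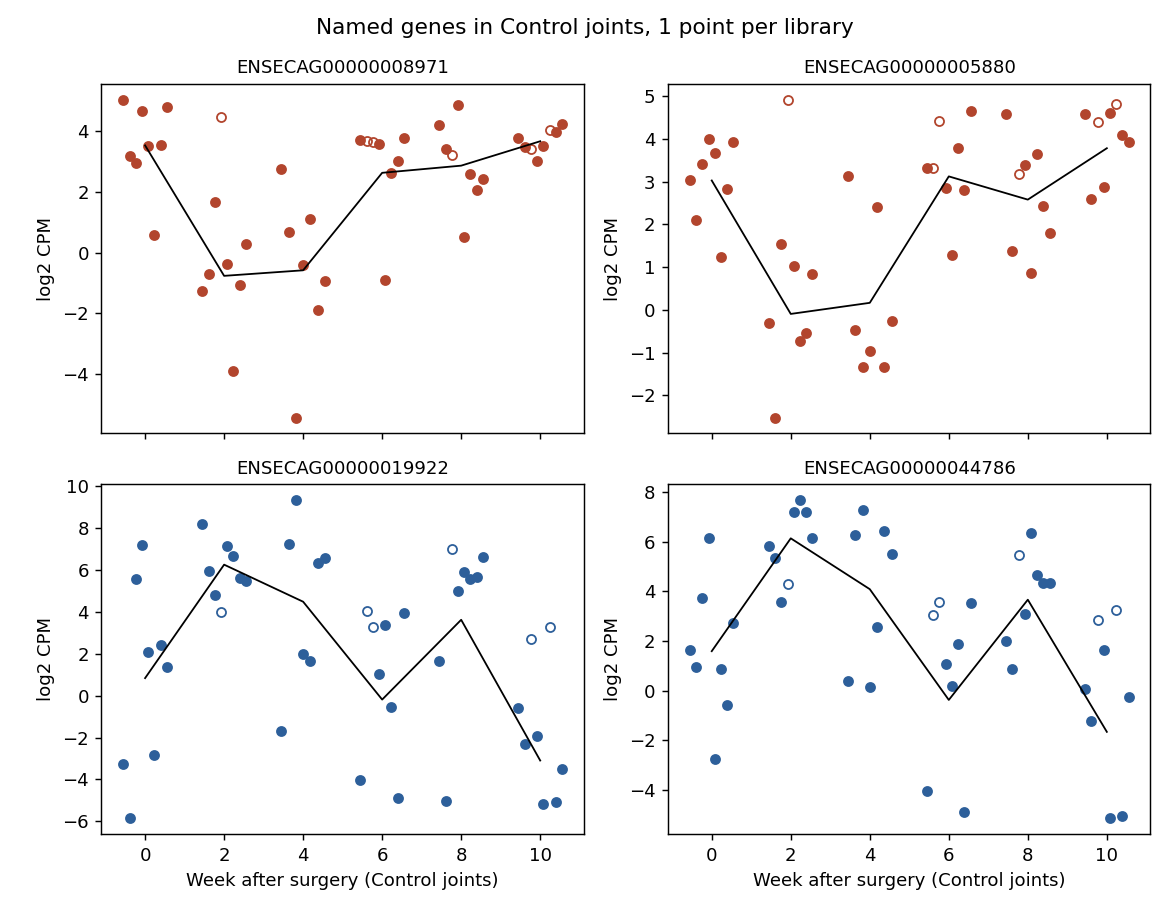
Each panel gives the log2 CPM of 1 named gene in the Control libraries by week, with filled points for libraries of spread at least 2, open points for those below 2, and a line through the means of the filled points. The genes that rose were low in most libraries at weeks 2 and 4. The genes that fell were high at week 2 and, in most libraries, at week 8. For the genes that fell, the open points at week 10 lie above the filled ones.

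Both falling genes varied widely between horses at the other weeks. ENSECAG00000019922 ranged from -5.86 to 7.21 log2 CPM over the 8 libraries of week 0, with a mean of 0.84 ± 4.51 (SD, n = 8). In week 4 it ranged from -1.68 to 9.33 (n = 7), in week 6 from -4.89 to 3.96 (n = 6) and in week 8 from -5.01 to 6.61 (n = 7). Week 2 and week 10 were the weeks at which its libraries lay closest together, with SDs of 1.15 and 1.82. The gene was chosen for a difference between these weeks, which by itself favours close values there. With all libraries the SDs at these weeks were 1.33 and 3.21. ENSECAG00000044786 averaged 1.59 ± 2.71 (SD, n = 8) before surgery, 4.09 ± 3.00 (SD, n = 7) in week 4, -0.38 ± 3.36 (SD, n = 6) in week 6 and 3.66 ± 1.83 (SD, n = 7) in week 8. Its course was therefore not a steady decline from week 2 to week 10.

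The 3 libraries of low spread gave different values for these genes. In horse 10, whose week 2 library had a spread of 1.34, the genes that rose elsewhere were already high at week 2, at 4.48 log2 CPM for ENSECAG00000008971 and 4.93 for ENSECAG00000005880, and their change to week 10 was -1.44 and -2.06. In horses 9 and 13, whose week 10 libraries had a low spread, ENSECAG00000019922 was at 2.69 and 3.26 at week 10, on 77 and 93 reads, above the other 6 Control libraries of that week. With all libraries the changes of the 4 named genes were 3.80, 3.46, -7.56 and -6.39, and all 4 stayed called. What gives these libraries their low spread was not tested.

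The direction of change was shared by most horses. Of the 1353 genes that rose, 1190 rose in each of the 5 horses with both libraries, and of the 2344 that fell, 2124 fell in each. Over all genes, 15.5% were higher and 22.7% lower in all 5. The week 2 and week 10 libraries did not overlap for 396 of the genes that rose (2.5% of all genes) and 798 of those that fell (5.04%), and over all genes, called or not, for 2.77% in the higher and 5.32% in the lower direction. These same libraries chose the genes, so the counts describe the calls and do not test them.

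Horse by horse, the genes that rose had a median change of 1.41 in horse 1, 1.51 in horse 2, 1.26 in horse 11, 1.85 in horse 15 and 0.96 in horse 16. The genes that fell had medians of -0.84, -0.82 and -0.93 in horses 1, 2 and 11, and lower ones in horses 15 and 16. The horses with 1 library left out were less uniform. The medians were 0.59 for the genes that rose and -0.47 for those that fell in horse 9, and 1.15 and -1.44 in horse 13. In horse 10 they were 0.26 and 0.69. The larger falls gave another picture. Over the 416 genes that fell by 2 or more the median was -3.65 in horse 10, 1.09 in horse 9 and 0.03 in horse 13, and over the 99 that fell by 4 or more it was -5.01, 0.47 and -0.60. Horse 10 thus had the sign of the 5 complete horses for the larger falls and not over the whole set, and horse 9 the reverse. In horse 10 the 382 genes that rose by 2 or more had a median of -2.40. The median over all genes lay between -0.18 and 0.14 in the 8 horses.

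**Figure D3:**
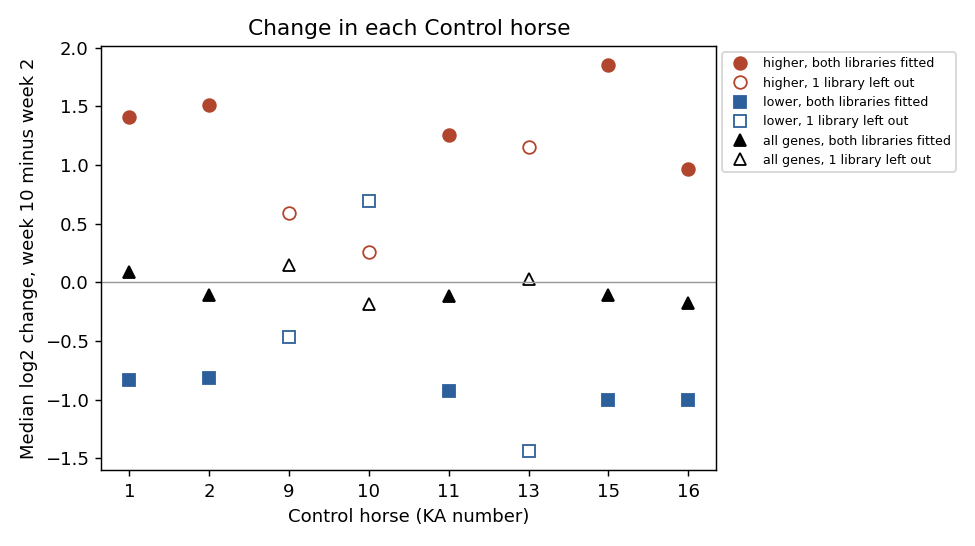
For each Control horse on the x axis, the y axis gives the median log2 change from week 2 to week 10 over the 1353 genes that rose, the 2344 that fell and all 15838 genes, with open symbols for the 3 horses that had a library of low spread. The 5 horses with filled symbols keep the sets well apart, and horse 10 does not.

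The levels at weeks 0, 4, 6 and 8 did not enter the difference that chose the genes, and they place the change in time. Those libraries did share in the variance estimate of the fit, and so in which genes were called. The median level of the genes that rose was 4.06 log2 CPM before surgery, 3.31 and 3.50 at weeks 2 and 4, 4.25 and 4.28 at weeks 6 and 8, and 4.62 in week 10. The genes that fell were at 5.81, 6.31, 6.14, 5.66, 5.78 and 5.45 in the same order. The median over all genes stayed between 3.91 and 3.98. In these medians week 4 thus lay nearer to week 2, and week 6 nearer to week 10, for both sets of genes. Single horses departed from this course. Relative to the week 0 mean, the genes that rose had a median of 0.32 in horse 1 at week 4. At week 8 it was -0.40 in horse 11 and -0.27 in horse 16, where the genes that fell were at 0.10 and 0.33.

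Compared gene by gene with week 0, the genes that rose were 0.70 lower at week 2 and 0.53 higher at week 10 in the median, and the genes that fell were 0.35 higher and 0.45 lower. The week 0 mean lay between those of week 2 and week 10 for 1069 of the 1353 genes that rose (79.0%) and 1555 of the 2344 that fell (66.3%), and for 36.2% of all genes. The genes were chosen for a difference between week 2 and week 10, which by itself favours a week 0 mean between them. Week 0 was above week 10 for 148 of the genes that rose and below week 10 for 403 of those that fell.

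The course of the larger falls was less even. For the 99 genes that fell 16-fold or more, the median difference from the mean of week 0, taken in each library, was 1.68 to 4.32 in the 7 libraries of week 2 and -2.53 to 0.04 in the 6 of week 10, which chose them. At week 4 it split the horses: 3.41 to 5.00 in horses 2, 9, 15 and 16, and -1.81, -0.67 and 0.81 in horses 1, 10 and 13. At week 6 it ranged from -2.59 to 2.15 (n = 6). At week 8 it was above 0 in 6 of the 7 libraries, with 3.93 in horse 11 and 3.50 in horse 16 the highest and -0.94 in horse 2 the lowest. The week 8 library of horse 11 stood apart: it held 6076026 reads, 64.4% of them in its 100 most abundant genes, and left 2211 genes without a read. In the other week 8 libraries the 100 most abundant genes took at most 29.7%. Before surgery it was already 3.42 in horse 10 and 2.33 in horse 9, and -1.43 to 0.60 in the other 6 horses. The wider set of 416 genes that fell by 2 or more took the same course, with 2.10 to 3.21 in horses 2, 9, 15 and 16 and -0.98 to 0.38 in horses 1, 10 and 13 at week 4, and values above 0 in 6 of 7 libraries at week 8. The 99 genes therefore differed between horses at the same week by as much as they differed between weeks 2 and 10.

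**Figure D4:**
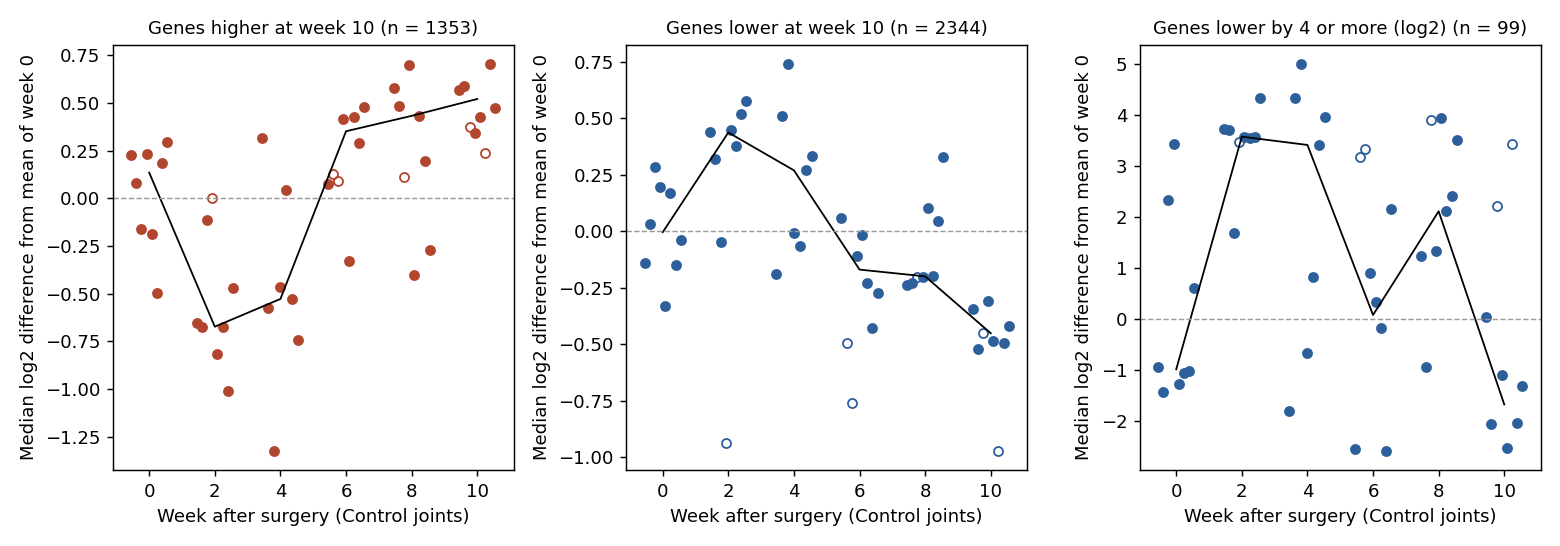
Each point is a Control library, placed by week on the x axis and by the median log2 difference of a set of genes from the mean of the 8 week 0 libraries on the y axis, for the 1353 genes that rose, the 2344 that fell and the 99 that fell by 4 or more. Filled points are libraries of spread at least 2, joined at their medians by the line, and open points are those below 2. The medians of the first 2 sets cross the week 0 level between weeks 4 and 6. Single libraries lie on the other side of that level at weeks 4, 6 and 8. The third set is high again in most libraries at week 8.

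The same genes were then read in Control week 8 against week 4, which shares no library with the comparison above but comes from the same horses. There, 688 genes (4.34%) were called by limma, 414 higher (2.61%) and 274 lower (1.73%). Of the 1353 genes that rose from week 2 to week 10, 1281 (94.7%) were higher at week 8 than at week 4, with a median of 0.72, and 288 were called higher (21.3%) and 0 lower. Of the 2344 genes that fell, 2060 (87.9%) were lower, with a median of -0.31, and 177 were called lower (7.55%) and 0 higher. Over all genes, 51.3% were higher. Both comparisons use 1 variance estimate per gene, which favours shared calls.

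The number of calls between weeks 4 and 8 rests on single horses. It was 42 without horse 2, 44 without horse 15, 93 without horse 10, 302 without horse 9 and 412 without horse 13, and it was 1089 without horse 1 and 1151 without horse 11. With all libraries it was 161 (1.02%), of which 139 were higher (0.878%). The direction did not. Leaving out each horse in turn, 90.5% to 96.5% of the genes that rose were higher at week 8 and 79.4% to 90.2% of those that fell were lower. In the main fit the share was smaller the larger the fall. Of the 416 genes that fell by 2 or more, 75.7% were lower at week 8 than at week 4 and 6 were called. Of the 99 that fell by 4 or more, 62 were lower and 0 were called. This order depended on the processing. For all genes that fell, the 416 and the 99, the shares were 76.0%, 94.7% and 92.9% with spread as a covariate on all libraries. With array weights on all libraries they were 88.8%, 89.7% and 92.9%. The shares also rest on single horses: of the 99 genes, 24 were lower without horse 2, 38 without horse 9, 76 without horse 11 and 92 without horse 1.

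ENSECAG00000008971 rose by 3.47 ± 0.82 (SE, limma adjusted p = 0.0126) and ENSECAG00000005880 by 2.43 ± 0.66 (SE, limma adjusted p = 0.0236) from week 4 to week 8. ENSECAG00000019922 had a change of -0.83 ± 1.65 (SE, limma adjusted p = 0.825) and ENSECAG00000044786 of -0.36 ± 1.22 (SE, limma adjusted p = 0.902). The named rises passed the test in these other libraries and the named falls did not, but the rises did so by a small margin. With a spread of at least 3 the limma adjusted p was 0.0663 and 0.0991, with the second change at 2.25, and with voom weights it was 0.0785 and 0.191. Without horse 2, 10 or 15 neither was called, and ENSECAG00000005880 was also lost without horse 9 and with 1 CPM added.

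The gel-treated arm shares neither horses nor libraries with the Control arm, but it entered the variance estimate behind the calls. At week 8 against week 2 it had 6 and 7 libraries of spread at least 2, and 1957 genes (12.4%) were called by limma, 753 higher (4.75%) and 1204 lower (7.6%). Of the genes that rose in Control joints to week 10, 93.6% were higher there, with a median of 0.78, and 421 were called higher and 1 lower. Of the genes that fell, 88.1% were lower, with a median of -0.37, and 513 were called lower and 20 higher. Over all genes 63.0% were lower, which is the share to read these against. With all libraries the call count was 536 (3.38%), 283 higher (1.79%) and 253 lower (1.6%). Of the 99 genes with the largest falls, 96 were lower, with a median of -2.35, and 38 were called lower.

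**Figure D5:**
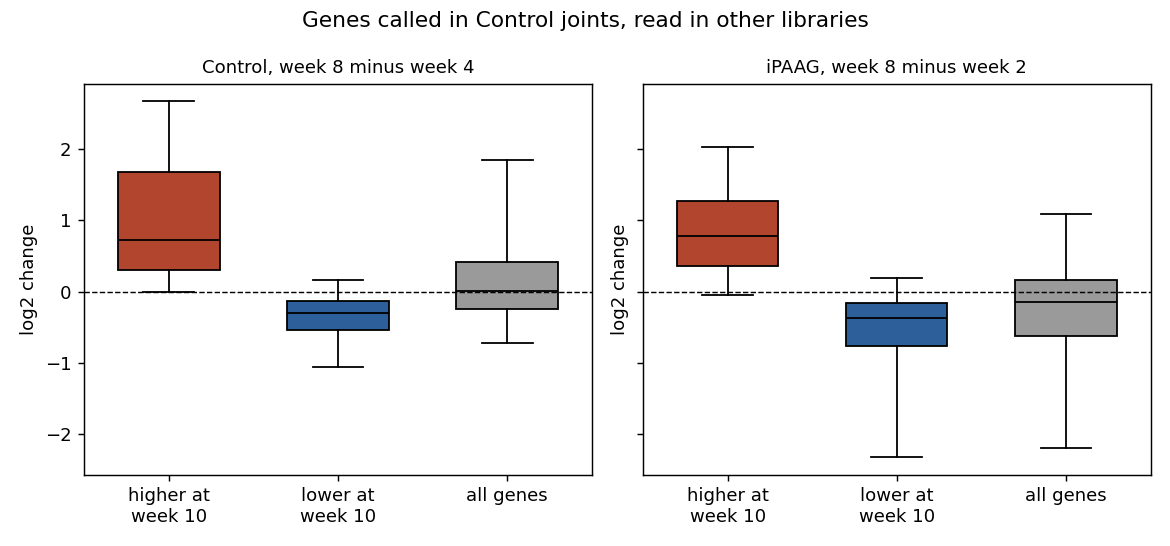
Boxes give the quartiles and median, and whiskers the 5th and 95th percentiles, of the log2 change over the 1353 genes that rose in Control joints from week 2 to week 10, the 2344 that fell and all 15838 genes. The left panel is Control week 8 minus week 4 and the right panel iPAAG week 8 minus week 2. Neither holds a Control library of week 2 or week 10, but both share the variance estimate of the fit that called the genes. In both panels the medians of the chosen sets lie on opposite sides of 0.

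Of the 4 named genes, ENSECAG00000005880 rose by 2.61 ± 0.68 (SE, limma adjusted p = 0.00807) and ENSECAG00000044786 fell by 4.38 ± 1.27 (SE, limma adjusted p = 0.0158) between weeks 2 and 8 in gel-treated joints. The values were 1.46 ± 0.86 (SE, limma adjusted p = 0.246) for ENSECAG00000008971 and -3.89 ± 1.72 (SE, limma adjusted p = 0.12) for ENSECAG00000019922. All 4 had the sign seen in Control joints.

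At the same weeks, 10 and 2, the gel-treated arm kept only 2 libraries at week 10, and 10 genes (0.0631%) were called there, 5 higher (0.0316%) and 5 lower (0.0316%). With all libraries, of which 6 of the 8 at week 10 have a spread below 2, 7492 genes (47.3%) were called, 3034 higher (19.2%) and 4458 lower (28.1%). Whether the change from week 2 to week 10 differed between the arms was tested directly. By limma 0 of 15838 genes were called (0%), with 261 at an unadjusted p below 0.05. With all libraries 4185 genes had such a p, and with spread as a covariate 3040. The count was 0 in 11 of 12 other settings and in all 8 that leave out a Control horse, and 11339 with array weights on all libraries. For ENSECAG00000019922 the difference, iPAAG minus Control, was 6.39 ± 3.08 (SE, limma adjusted p = 1.00). It did not pass after adjustment over all genes, which does not show that the arms are alike.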

How the data were processed

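The authors deposited 1 table of log2 CPM values from voom, named so in the file, for 15838 genes and 93 libraries of synovial fluid cells. The submitters' processing notes name STAR 2.7.10b, the build EquCab3.0 and limma 3.62.2. How reads were counted, and whether by strand, is not given in the sources used here, nor is the annotation release, so overlapping genes and near-identical copies are uncertain. The library kit keeps strand, per the labels' protocols. On the scale set by each library's smallest value, 100% of the values were whole reads plus 0.5, within a tolerance of 0.05 reads.

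Each library's arm, horse and week came from its title. The main model was limma 3.58.1 in R 4.3.3 on the deposited log2 values of the 70 libraries with a spread of at least 2, with 12 arm-by-week means, horse as a random block (consensus correlation 0.09), a variance trend and Benjamini-Hochberg adjustment over all genes at 0.05. No library had a spread between 1.90 and 2.19. The weeks are paired because they come from the same horses. Deviations from the group means correlated by 0.09 to 0.27 (mean 0.16) in the 5 same-horse pairs. In the 37 pairs of different horses they correlated by -0.22 to 0.19 (mean -0.02), so the ranges overlap. Named genes were the 2 largest rises and falls with adjusted p below 0.05, a mean of at least 1 log2 CPM and, in at least 75% of complete pairs, the sign of the fit. The members and lists were chosen with earlier results of these data known. The 25 gene lists by symbol could not be used, and 0 were tested. No pair of libraries within Control week 2 or within Control week 10 was a repeat (smallest chi-square per degree of freedom 44.1 over genes with at least 10 reads). The other groups were not checked for repeats. Library measures were compared by two-sided exact permutation of signs within horse. Genes detected are those expected in a draw of 1737741 reads. The model was also run on simulated reads with known changes, and the outcome is not given here. Python 3.11.15, numpy 2.4.6, pandas 2.3.3, scipy 1.17.1 and matplotlib 3.10.9 were used for the rest.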

Additional observations from a re-analysis of the deposited data

Results flagged for a closer look

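In 20 groups of 5 to 8 values, the sample farthest from the others was checked against Dixon's limit, which chance passes in about 1 group in 20. All 5 values past it come from 2 libraries, and the measures of 1 library are not independent. The week 2 library of horse 10 stood apart from the other 7 Control libraries of that week in 4 measures. It held 5355869 reads where the next lowest held 20964715, and its spread was 1.34 where the next was 3.26. At a common depth 15812 genes were detected in it, against 14245 in the next highest, and its 100 most abundant genes took 8.94% of its reads, against 23.1% in the next lowest. In the week 10 library of horse 13 the 100 most abundant genes took 12.1% of the reads, against 23.2% in the next lowest. Both libraries have a spread below 2 and were left out of the main comparison.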

How the results depend on the processing

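The main count of 3697 genes stayed within 1.5 times under 12 of 15 other settings. It was 1232 with all libraries, 534 with all 8 pairs alone whatever their spread and horse as a fixed replicate block, and 5995 with array weights on all libraries. Without a replicate block it was 3360, and leaving out each Control horse gave 2286 to 4619. Without the week 10 library of horse 1, a setting added after seeing the data, it was 3400. For week 8 against week 4 the 688 genes became 161 with all libraries, 76 with a spread of at least 3, 378 with no replicate block, 426 with voom weights and 2178 with array weights, and 42 to 1151 leaving out each horse. Median centring moved its share of higher genes from 60.2% to 49.1%, all libraries to 86.3%. The difference between the arms was called for 0 genes except for 11339 with array weights, and for 0 to 0 leaving out each horse. Between weeks 2 and 10 the 4 named genes kept their sign in every setting run, and 1 of them lost its call in 1 setting (voom weights, ENSECAG00000019922, -9.05). Between weeks 4 and 8 the named rises lost theirs in 2 (ENSECAG00000008971) and 3 (ENSECAG00000005880) of 13 settings, and when 3 and 4 of the 8 horses were left out. Dropping the replicate block changed no named call. The 4 library measures did not pass in any setting. With 5 complete pairs the exact test cannot go below 0.0625. The causes were not tested. Few reads limit the sizes of the largest rises and falls. With 1 CPM added the named rises from week 2 to week 10 were 2.88 (ENSECAG00000008971) and 2.84 (ENSECAG00000005880).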

Other observations

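Control libraries of spread at least 2 lay closest together at week 10. The median over all 15838 genes of the SD between libraries was 0.58 at week 0 (n = 8), 0.50 at week 2 (n = 7), 0.53 at week 4 (n = 7), 0.50 at week 6 (n = 6), 0.58 at week 8 (n = 7) and 0.37 at week 10 (n = 6). Among the 2344 genes that fell from week 2 to week 10 it was 0.39 at week 2 and 0.25 at week 10, and among the 1353 that rose 0.60 and 0.48. The difference in SD between weeks was not tested, and leaving out the 2 week 10 libraries of low spread bears on it.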
